A study of Bos taurus with 57 samples.

Results

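The genes described here are the 200 that were most abundant at once in the arcuate nucleus, the anterior pituitary and the testes of Holstein Friesian bull calves, out of 24616 genes counted in each library. Each count was divided by the total count of its library and scaled to CPM (reads of the gene in each 1e6 reads counted), and CPM was averaged within each tissue over the libraries of calves on the high plane of nutrition. Members were chosen by these means alone. Genes were ranked by the smallest of their 3 tissue means, and the 200 of highest rank were kept among genes whose largest and smallest tissue means differed by less than 4-fold. A count was recorded for 23001 of the 24616 genes, and 11837 of these met the fold limit. A further 17 genes were as abundant as the 200 in their lowest tissue but differed by 4-fold or more between tissues, and so were left out. The data list genes by Ensembl identifier, and no table used here pairs those identifiers with gene names, so the function of single genes, the tissue markers and the genes commonly used as references could not be looked up.

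All calves were male, and at slaughter at 126 days of age the arcuate region of the hypothalamus, the anterior pituitary and testicular parenchyma were taken. The anterior lobe is called the pituitary below. The high plane calves had more milk replacer than the low plane calves and concentrate without limit, whereas concentrate was rationed on the low plane. Growth of 1.08 and 0.5 kg per day is given in the labels for the high and the low plane, and 1.2 kg per day for the high plane in the series' own design text. The 57 libraries comprised 20 of the arcuate nucleus (10 from each plane), 19 of the pituitary (9 high, 10 low) and 18 of the testes (10 high, 8 low), and they were made as single-end mRNA libraries. The labels do not tie libraries to calves, so the tissues of 1 calf could not be matched and every test treats libraries as independent. The letter A otherwise marks the pituitary, but library A48 is labelled as high plane testes. Its counts are headed B48, the letter of the testes, and it was kept there. The tissues are whole dissected pieces, in which fewer cells of a type and less RNA per cell cannot be told apart.

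As background, the 3 tissues form the axis that brings about puberty in the bull. Neurons of the arcuate nucleus sense nutrient status and act on the release of gonadotrophin-releasing hormone, the pituitary answers with the gonadotrophins LH and FSH, and these act on the Leydig and Sertoli cells of the testis. In any tissue a small number of genes that all cells use, among them those for ribosomal proteins, translation factors, the cytoskeleton and energy metabolism, supply a large part of the messenger RNA, and such genes are often used to scale other measurements, which is why their share of reads, their steadiness and their response to diet matter. A share of reads also grows with transcript length, and the counts were not corrected for it, so levels are compared below for the same gene across libraries and tissues and never between genes as numbers of molecules.

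Total counts ran from 898979 to 32009433 in the arcuate nucleus, from 6895844 to 27426173 in the pituitary and from 8586953 to 26067610 in the testes. All 200 genes had a count in every library, the lowest being 25 reads, and the lowest CPM was 2.88. Before the results it has to be said that 11 libraries stood apart from the others of their tissue in the proportions of these genes, as described further below. The same libraries stood at 1 end of their tissue in the genes outside the 200 as well. They were C6 and C33 of the arcuate nucleus (both low plane), A18, A51 and A57 (high plane) and A10 and A47 (low plane) of the pituitary, and B42 (high plane) and B2, B15 and B21 (low plane) of the testes.

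At the limits that chose the genes, the member of rank 200, ENSBTAG00000005408, had a smallest tissue mean of 221.5 CPM, and the first gene left out, ENSBTAG00000004315, had 221.2 CPM. The member nearest the fold limit, ENSBTAG00000043550, differed by 3.86-fold between tissues, and the nearest gene beyond it, ENSBTAG00000043560, by 4.03-fold. The smallest tissue mean had a median of 304 CPM over the 200 genes. It reached 18141 CPM in the gene of rank 1, ENSBTAG00000043561.

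In the high plane libraries the fold between the highest and the lowest tissue ran from 1.03 to 3.86, with a median of 1.90. It was under 1.5 for 51 genes and under 2 for 110. The testes were the highest tissue for 114 of the 200 genes, the arcuate nucleus for 59 and the pituitary for 27, while the arcuate nucleus was the lowest tissue for 101, the pituitary for 73 and the testes for 26. These values come from the libraries that chose the genes and are a description only.

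The low plane libraries had no part in the choice. In them the fold between tissues had a median of 1.92 and was under 4 for 189 of the 200 genes. The same ranking made in the low plane libraries chose 172 of the 200 genes again. Of the other 28, 11 were at 4-fold or more and 17 fell below rank 200, none of these below rank 518. The highest tissue was the same on both planes for 153 genes. Of the 11 genes at 4-fold or more on the low plane, 5 were highest in the testes, 4 in the arcuate nucleus and 2 in the pituitary. Without the low plane libraries that stood apart, 10 of the 200 were at 4-fold or more and the median fold was 1.92.

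The gene most even between tissues on the high plane was ENSBTAG00000014490, at 357 ± 25.4 CPM (SD, n = 10) in the arcuate nucleus, 364 ± 80.5 CPM (n = 9) in the pituitary and 368 ± 25.99 CPM (n = 10) in the testes. On the low plane it stood at 349 ± 103 CPM (n = 10), 424 ± 50.2 CPM (n = 10) and 397 ± 78.6 CPM (n = 8) in the same order, a fold of 1.21. The libraries of the 3 tissues overlapped on both planes for this gene. The widest gap on the low plane was 6.90-fold, for ENSBTAG00000019150, whose means were 803 CPM in the arcuate nucleus, 922 CPM in the pituitary and 134 CPM in the testes.

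Together the 200 genes held between 11.3% and 26.2% of all counts in a library. In the arcuate nucleus their share was 17.4% to 22.2% on the high plane (mean 19.0% ± 1.33, SD, n = 10) and 17.5% to 26.2% on the low plane (19.8% ± 3.07, n = 10). In the pituitary it was 11.6% to 16.3% on the high plane (13.4% ± 1.73, n = 9) and 11.3% to 18.5% on the low plane (13.4% ± 2.13, n = 10). In the testes it was 15.97% to 21.6% on the high plane (17.5% ± 1.64, n = 10) and 16.5% to 20.95% on the low plane (18.8% ± 1.83, n = 8). The 2 diets overlapped in each tissue, and the lowest arcuate library lay above all pituitary libraries but 1. Counting error was small beside these ranges, since the 95% Wilson interval of the share was at most 0.161 percentage points wide, in the shallow arcuate library C22, and at most 0.0585 in any other. Such intervals cover counting error only, and reads copied by PCR are not independent molecules.

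**Figure D1:**
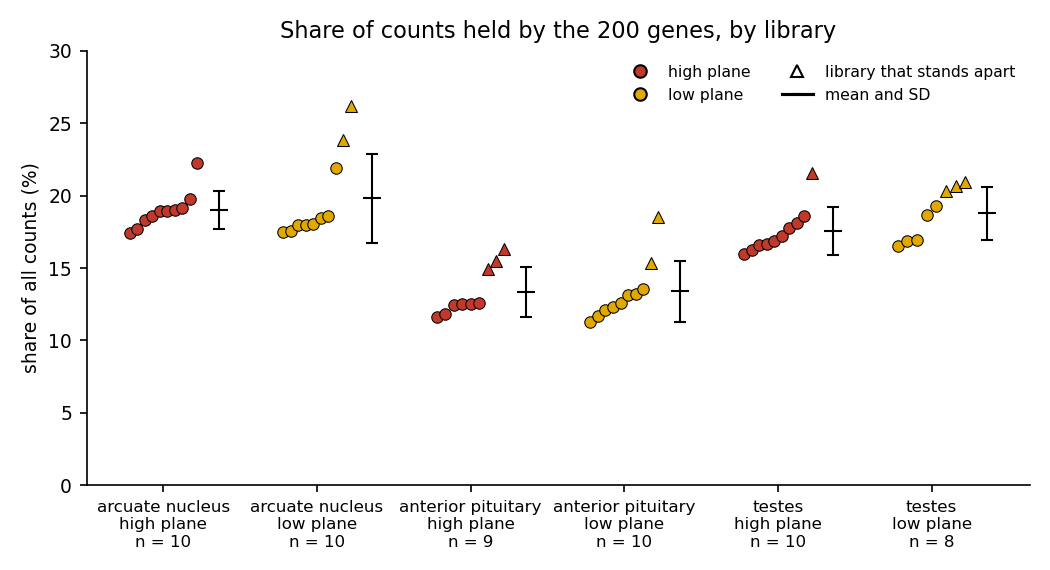
Share of all counts held by the 200 genes (%, vertical axis) in each library of the 6 groups, with points ordered by value within a group, triangles for libraries that stood apart, and bars for the mean and SD. The pituitary libraries lie lowest, between 11.3% and 18.5%, and in each tissue the triangles lie at the top of their group.

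A single gene made up much of this share. ENSBTAG00000043561 alone took 4.68% ± 0.901 (SD, n = 10) of the counts in high plane and 4.98% ± 1.63 (n = 10) in low plane arcuate libraries, 1.81% ± 0.702 (n = 9) and 1.54% ± 0.552 (n = 10) in the pituitary, and 2.61% ± 0.647 (n = 10) and 2.80% ± 0.822 (n = 8) in the testes. Its CPM ranged from 36947 to 66230 (median 45552) in high plane and from 34818 to 83752 (median 43500) in low plane arcuate libraries. The arcuate libraries were all above the pituitary libraries for this gene, and the diets overlapped in every tissue. The low minus high difference was 0.18 ± 0.23 (log2, SE) in the arcuate nucleus, -0.30 ± 0.23 in the pituitary and 0.05 ± 0.22 in the testes, and its FDR was 0.688, 0.917 and 0.877 (edgeR quasi-likelihood test).

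Without that gene the mean share of the other 199 lay closer together, at 14.3% and 14.8% on the high and low plane in the arcuate nucleus, 11.5% and 11.8% in the pituitary, and 14.9% and 15.97% in the testes. The reads were most concentrated in the arcuate nucleus, where a median of 11 genes on the high plane and 13.5 on the low plane together held most of the reads of the 200 (at least 50%), against 40 and 41 in the pituitary and 34 and 31.5 in the testes. Of the 10 genes of highest rank, 6 have identifiers that begin with ENSBTAG000000435, and so do 10 of the 200 and 78 of all genes listed. Those 10 were all highest in the arcuate nucleus and lowest in the pituitary on the high plane. Their summed share on the low plane, in libraries the rule did not use, was 6.53% to 16.3% in the arcuate nucleus, 2.03% to 4.79% in the pituitary and 3.12% to 6.87% in the testes, so the arcuate and pituitary ranges did not overlap. This shared prefix was seen only after the genes were ranked.

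The share also depends on what else a tissue transcribes. In the pituitary as few as 314 genes (median of the high plane libraries) and 272.5 genes (low plane) held 50% of all reads, against 751.5 and 808.5 in the arcuate nucleus and 909 and 868 in the testes. Nevertheless, the 200 genes were better represented among the leading genes of the pituitary. Between 103 and 132 of the 200 were among the 200 most read genes of a single pituitary library, 94 to 108 in a testes library and 70 to 92 in an arcuate library. The 17 genes left out by the fold limit added 4.55% to 9.71% of counts in the arcuate nucleus, 1.49% to 2.78% in the pituitary and 4.38% to 5.74% in the testes.

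Steadiness was measured by the coefficient of variation (CV), the SD of CPM over the libraries of a group divided by the mean. On the low plane the median CV of the 200 genes was 28.5% in the arcuate nucleus, 29.4% in the pituitary and 26.3% in the testes. Over all genes with a mean above 1 CPM it was 37.1%, 37.03% and 36.02%. Other genes with a tissue mean at least as high as that of the last member had a median CV of 31.1%, 32.9% and 27.98%. On the high plane the 200 genes had a median CV of 13.1%, 36.1% and 21.4%, against 19.997%, 43.7% and 28.3% over all genes and 18.7%, 36.1% and 24.04% over the other genes at least as abundant. The 200 genes thus had a somewhat lower median CV than these other genes in each low plane group, which had no part in the choice. The high plane libraries chose the genes. There the median CV was lower in the testes and, by the widest margin, in the arcuate nucleus, and about the same in the pituitary. The other genes were not matched in level to the 200. If reads were independent molecules, which PCR copies are not, counting alone would give a CV with a median of 1.02% to 1.95% in the 6 groups and of at most 6.91% for any of the genes.

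**Figure D2:**
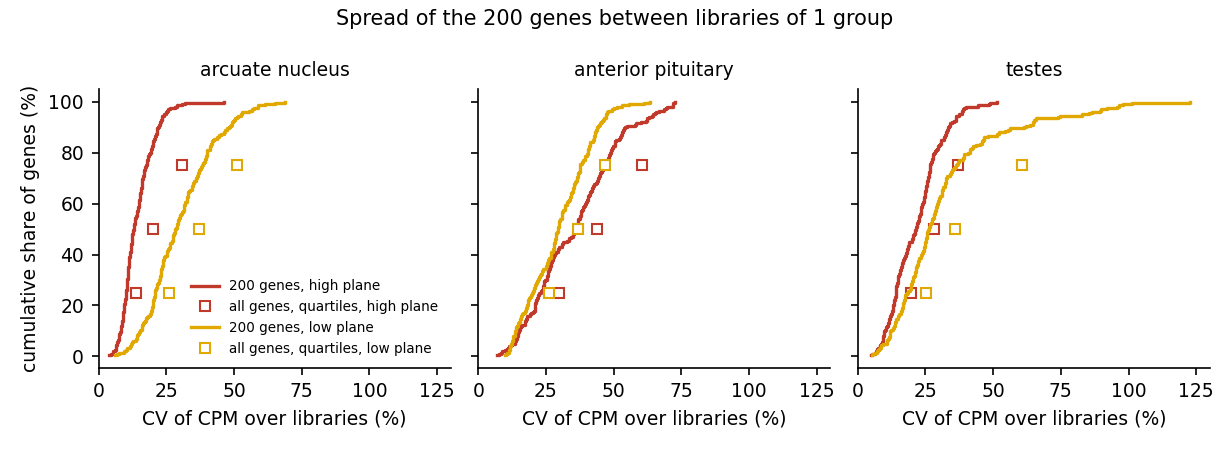
Cumulative share of the 200 genes (%, vertical axis) at or under a given CV of CPM over the libraries of a group (%, horizontal axis), for the high plane (red lines) and the low plane (yellow lines) in each tissue, with open squares at the quartiles of all genes with a mean above 1 CPM. Each line lies to the left of its squares, and the arcuate high plane line, with a median of 13.1%, lies furthest left.

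Few of the 200 genes were steady in every group. A CV under 20% was found for 13 of them in all 3 low plane groups, and for 9 in all 6 groups. In single low plane groups it was found for 42 (arcuate nucleus), 50 (pituitary) and 58 (testes) of the 200. Over all genes with a mean above 1 CPM the numbers were 1784 of 14399, 1866 of 13863 and 2101 of 14516. Without the libraries that stood apart, which were picked for their values of these genes, they were 164, 192 and 89 of the 200. A CV over 50% was found for 35 genes in at least 1 low plane group and for 1 gene in all 3. Of the 50 genes with the lowest mean CV on the low plane, 39 were also among the 50 lowest on the high plane, and 38 were shared by the 50 least steady.

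The steadiest gene on the low plane was ENSBTAG00000018115, with a mean CV over the 3 tissues of 7.95%. It ran from 726 to 897 CPM (median 851) in the arcuate nucleus, from 311 to 430 CPM (median 368) in the pituitary and from 678 to 843 CPM (median 756) in the testes. Its libraries thus stayed close within each tissue, including those that stood apart, but the pituitary lay below the other two tissues in every library, by 2.29-fold at the mean. The next was ENSBTAG00000015767, with a mean CV of 9.07%.

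At the other end, ENSBTAG00000047254 had a mean CV of 75.3% on the low plane. It ran from 22.95 to 1270 CPM (median 747) in the arcuate nucleus, from 35.3 to 551 CPM (median 451) in the pituitary and from 26.2 to 755 CPM (median 79.3) in the testes. On both planes together, the 11 libraries that stood apart read between 17.5 and 96.6 CPM for this gene. The lowest values of each tissue were found in these libraries, and 2 further low plane testes libraries, B26 and B20, read 62.6 and 95.96 CPM. It was followed by ENSBTAG00000011689, with a mean CV of 69.4%.

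The spread of the 200 genes was largely shared between them. A principal component analysis of log2(CPM + 1), centred within each diet, placed 80.5% of their variation in the arcuate nucleus on a first component, 90.5% in the pituitary and 84.6% in the testes. A first component fitted separately to the other genes with a mean above 1 CPM held 68.2%, 86.5% and 80.1% of theirs. With each component pointed the same way, 103 of the 200 genes rose and 73 fell along it in all 3 tissues, and 24 went different ways. The 103 are called the first group and the 73 the second group below. The groups were seen in these same libraries and are a description. In the arcuate nucleus the first component rested mostly on the low plane libraries C6 and C33. Their scores on it were 0.83 and 0.34, against -0.19 (C41) to 0.052 (C9) in the others. On the component of the other genes C6 and C33 also came first, with 0.76 and 0.44. In the pituitary A57, A10, A47, A18 and A51 held ranks 1 to 5 on it, and in the testes B42, B2, B21 and B15 held ranks 1 to 4. The contrast between libraries was thus not particular to the 200 genes.

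**Figure D3:**
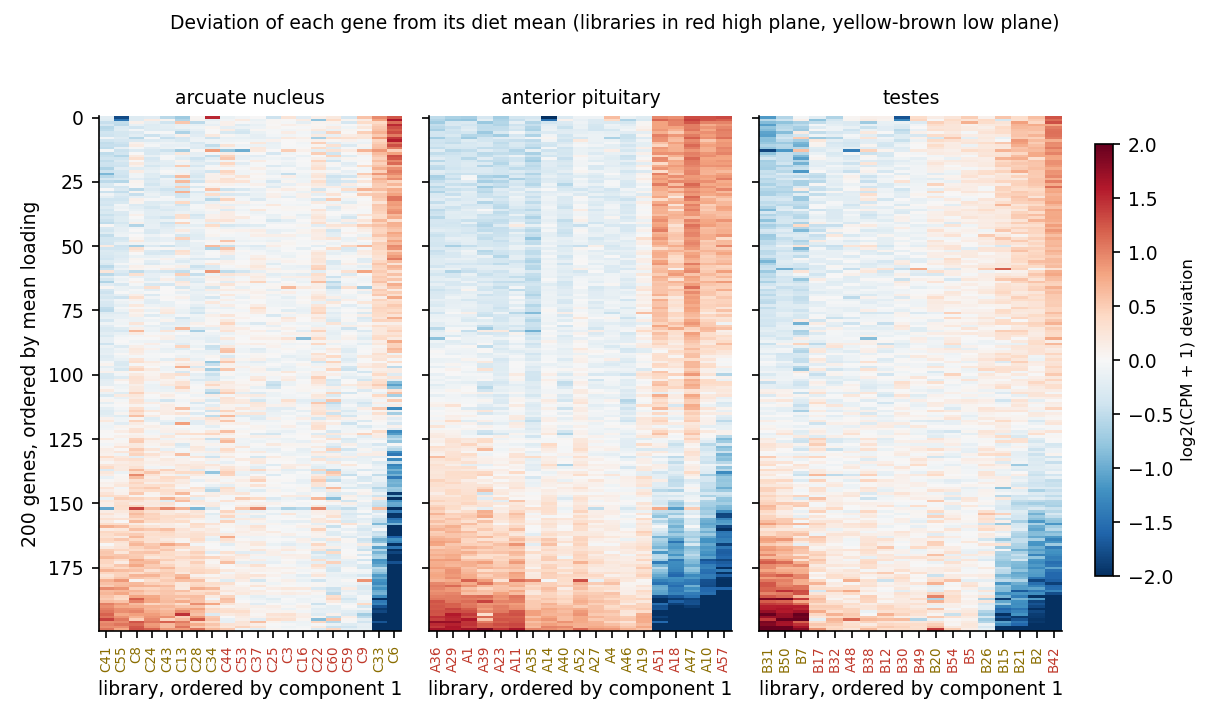
Deviation of log2(CPM + 1) from the mean of its diet (colour, cut off at 2 either way) for the 200 genes (rows, ordered by mean loading on the first component) and the libraries of each tissue (columns, ordered by their score on that component). The 2, 5 and 4 libraries that stood apart form the right edge of the arcuate nucleus, pituitary and testes panels, with the first group high in red and the second group low in blue.

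To give the contrast in plain reads, the summed CPM of genes that rose was divided by that of genes that fell, with the genes for each tissue taken from the other 2 tissues only. This used 120 rising and 73 falling genes for the arcuate nucleus, 104 and 74 for the pituitary and 104 and 77 for the testes. All 73 genes that fall in every tissue and all 103 that rise are among them. In the arcuate nucleus the ratio was 8.74 in C33 and 21.1 in C6, against 2.52 to 4.67 in the other 18 libraries. In the pituitary it was 5.08 to 10.3 in the 5 libraries that stood apart and 1.42 to 1.74 in the other 14, so the libraries formed separate sets with nothing between. In the testes it was 4.61 to 6.66 in the 4 and 1.36 to 3.25 in the other 14, with the low plane libraries B20 (2.86) and B26 (3.25) nearest to the 4.

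The libraries that stood apart had the higher shares of counts. They were picked for their values of these same genes, and the rising genes hold most of the share. The higher share thus follows in part from the choice and is no separate result. The 200 genes held 23.8% to 26.2% of counts in the 2 arcuate libraries against 17.4% to 22.2% in the others, 14.96% to 18.5% against 11.3% to 13.6% in the pituitary, and 20.3% to 21.6% against 15.97% to 19.3% in the testes. Their total counts, from 8670087 to 15729279, from 6895844 to 16504523 and from 9139193 to 19998408 in the 3 tissues, overlapped those of the other libraries. The diets were unequally represented, with 0 of 10 high plane and 2 of 10 low plane libraries in the arcuate nucleus, 3 of 9 and 2 of 10 in the pituitary and 1 of 10 and 3 of 8 in the testes. What sets these libraries apart was not tested.

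Without them the 200 genes were steadier. The libraries left out were picked for their values of these same genes, so part of this follows from the choice. The median CV was then 14.02% in low plane arcuate libraries (n = 8), 8.96% and 11.4% in high and low plane pituitary libraries (n = 6 and n = 8), and 11.9% and 22.1% in high and low plane testes libraries (n = 9 and n = 5). Over all genes it was 20.1%, 14.9%, 15.4%, 16.7% and 30.4%. The low plane testes group thus kept the widest spread. The 24 genes that went different ways in the 3 tissues had the lower median CV on the low plane, at 19.9%, 19.3% and 13.8%, compared with 27.2%, 34.4% and 26.4% for the first group and 34.7%, 26.7% and 36.98% for the second. Genes that follow the first component little can take either sign on it, so this lower CV is partly built in.

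The response to diet was taken as the log2 difference of low minus high plane within a tissue, from the edgeR quasi-likelihood test fitted to all genes that passed its filter on low counts, with Benjamini-Hochberg adjustment over all of them (FDR) and a threshold of 0.05. All 200 genes passed the filter in each tissue. The high plane libraries, against which the low plane is set, are those that chose the genes. The differences were small on the whole. They lay within 1.5-fold for 197 of the 200 genes in the arcuate nucleus, 200 in the pituitary and 168 in the testes, and for 167 in all 3 tissues. Within 1.5-fold lay 94.1%, 93.1% and 66.3% of all genes tested and 98.5%, 100% and 84.0% of the 200. The standard error was also smaller for the 200 genes, with a median of 0.17, 0.20 and 0.18 on the log2 scale against 0.22, 0.26 and 0.24 over all genes.

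In the arcuate nucleus none of the 200 genes passed the threshold, as was the case for all 14757 genes tested (0% called). edgeR's exact test, DESeq2 and limma voom with quality weights also called 0 of the 200. An unadjusted p below 0.05 was found for 28 of the 200 (14%) and for 1464 of all genes (9.92%). The median difference was 0.11 for the 200 and -0.01 for all genes. These figures depended on C6 and C33, which were picked for their values of these same genes. Without them an unadjusted p below 0.05 was found for 4 of the 200 and 575 of 14874 genes. The median difference of the 200 was then -0.005. The gene with the smallest p-value, ENSBTAG00000005408, read 173 to 284 CPM (median 221) on the high plane and 217 to 680 CPM (median 286) on the low plane, where 5 of 10 libraries exceeded the whole high plane range. Its difference was 0.71 ± 0.24 (log2, SE) with an FDR of 0.477, and it was 0.31 ± 0.12 without C6 and C33.

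In the pituitary none of the 200 passed either, where 81 of 14411 genes did (0.562% called). An unadjusted p below 0.05 was found for 10 of the 200 (5%) and for 1070 of all genes (7.42%). The exact test called 0 of the 200, DESeq2 called 2 (1%), against 1.33% of all genes, and limma voom 16 (8%), against 7.58%. The median difference was -0.01 for the 200 and 0.02 for all genes. ENSBTAG00000019648 had the smallest p-value. It read 379 to 811 CPM (median 638) on the high plane and 727 to 1037 CPM (median 847) on the low plane, where 7 of 10 libraries lay above all 9 high plane libraries. Its difference was 0.38 ± 0.11 with an FDR of 0.205.

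The pituitary result depended on the libraries that stood apart. Without those 5 libraries, 10 of the 200 genes were called higher and 2 lower on the low plane (6%). Over all genes 833 of 14563 were then called (5.72% called), 404 higher and 429 lower. A library score was also fitted as covariate, the mean log2 CPM of 200 genes outside those described, chosen in the other 2 tissues. With it 11 were called higher and 2 lower (6.5%). Over all genes 762 of 14411 were called with it (5.29% called), 383 higher and 379 lower. In both fits the share of the 200 called in either direction was close to the background, and 5 genes were called in both. The calls among the 200 were mostly higher, whereas those over all genes were near evenly split. Many of the 200 vary together, so this split is no test.

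In the testes 7 of the 200 genes passed the threshold (3.5%), against 1057 of 15310 genes (6.9% called). Of the 7, 2 were higher on the low plane, against 727 of all genes (4.75% called), and 5 were lower, against 330 (2.16% called). An unadjusted p below 0.05 was found for 62 of the 200 (31%) and for 4629 of all genes (30.2%). The median difference was 0.06 for the 200 and -0.01 for all genes. On library totals without TMM factors 31 were called higher and 5 lower (18%), against 15.3% of all genes (2025 higher and 311 lower). The split between directions thus depended on the scaling.

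The 2 genes that rose on the low plane in the testes were ENSBTAG00000019474 and ENSBTAG00000008167. The first read 219 to 341 CPM (median 269) in the 10 high plane libraries and 298 to 550 CPM (median 436) in the 8 low plane libraries, of which 6 lay above every high plane library. Its difference was 0.59 ± 0.14 with an FDR of 0.0262. The second read 247 to 407 CPM (median 286) on the high plane and 303 to 696 CPM (median 493) on the low plane, of which 5 of 8 lay above every high plane library, a difference of 0.68 ± 0.18 with an FDR of 0.0361. In the other tissues the diets overlapped for both. The differences of ENSBTAG00000019474 were 0.10 ± 0.11 in the arcuate nucleus and 0.13 ± 0.14 in the pituitary, and those of ENSBTAG00000008167 were 0.23 ± 0.17 and -0.06 ± 0.22. Without the 4 libraries that stood apart the testes differences were 0.41 (FDR 0.0938) and 0.44 (FDR 0.0912), and neither was called. Leaving out 1 library, ENSBTAG00000019474 lost its call without B2, B5, B20, B21 or B38 (FDR up to 0.0564) and ENSBTAG00000008167 without A48, B2, B5, B12, B20, B21, B26, B32, B38 or B49 (FDR up to 0.0784).

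Among the 5 genes that fell, ENSBTAG00000021237 had the smallest p-value. It read 945 to 1392 CPM (median 1032) in high plane and 379 to 813 CPM (median 665) in low plane testes libraries, so that the groups did not overlap. The difference was -0.81 ± 0.13 with an FDR of 0.0169. It was the single gene of the 200 (0.5%) whose CPM did not overlap between diets in the testes, where 0.229% of all genes did not overlap. No gene of the 200 was without overlap in the arcuate nucleus or the pituitary, where 0% and 0.187% of all genes were. In those tissues ENSBTAG00000021237 read 760 to 1065 CPM (median 909) and 474 to 693 CPM (median 572) on the high plane, and 328 to 986 CPM (median 949) and 400 to 788 CPM (median 641) on the low plane. It was called in the testes in every fit that left out 1 library, with an FDR of at most 0.0453, and without the 4 libraries that stood apart its difference was -0.72 with an FDR of 0.0403. The call was lost with the log2 total count as covariate, where the difference was -0.79 with an FDR of 0.105.

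ENSBTAG00000013653 also fell in the testes, from 331 to 674 CPM (median 542) on the high plane to 233 to 525 CPM (median 312) on the low plane, where 5 of 8 libraries lay below every high plane library. The difference was -0.70 ± 0.16 with an FDR of 0.0234. It was -0.56 with an FDR of 0.0854 without the libraries that stood apart, and the call was also lost without B2, B12, B20 or B21 alone (FDR up to 0.065). The other 3 genes that fell had differences of -0.45, -0.90 and -0.99 with an FDR of 0.0206, 0.0374 and 0.0413. All 5 genes that fell belong to the falling genes fixed in the other 2 tissues, and 1 of the 2 that rose belongs to the rising genes.

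**Figure D4:**
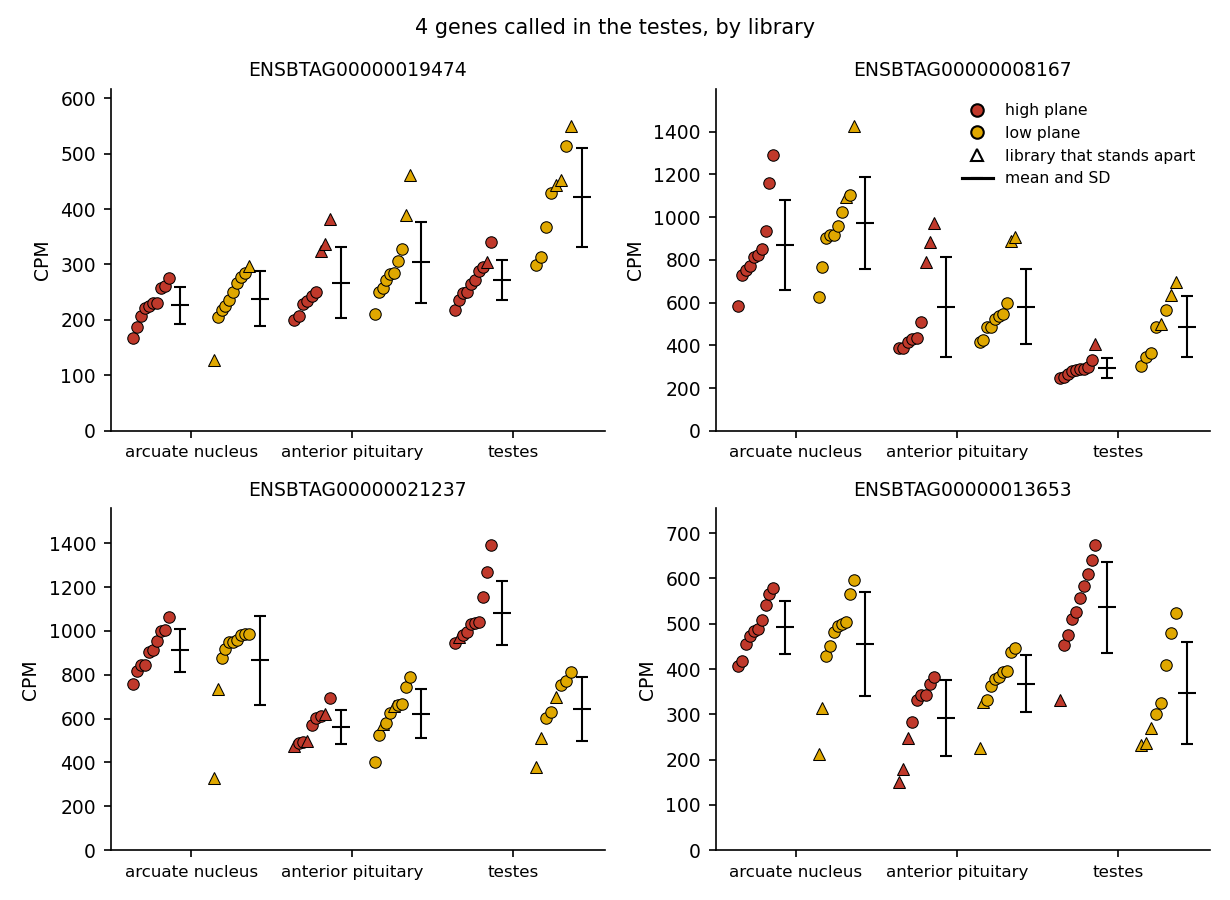
CPM by library (vertical axes, from 0) of 4 genes called in the testes, with high plane libraries in red, low plane in yellow, triangles for libraries that stood apart, and bars for the mean and SD of each group. For ENSBTAG00000021237 the testes groups do not overlap (945 to 1392 against 379 to 813 CPM), and for the other 3 genes they do.

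How many of the 200 were called in the testes changed whichever single library was left out, and several of these fits are given here. Without B42, the 1 high plane library that stood apart, 69 of the 200 were called (34.5%), against 30.1% of all genes. Without B31, of the low plane, 31 were called (15.5%), against 17.2% of all genes, and without B7, also of the low plane, 29 (14.5%), against 16.6%. The number was 4 (2%) without A48, B26, B32 or B49, against 2.14%, 3.06%, 2.25% and 3.38% of all genes. It was 3 (1.5%) without B5, B12 or B38, against 1.97%, 2.8% and 1.81%. It was 2 (1%) without B20, against 1.39%, and 1 (0.5%) without B2 or B21, against 1.02% and 1.41%. Without the 4 libraries that stood apart only ENSBTAG00000021237 was called (0.5%), against 58 of 15641 genes (0.371% called). With the library score as covariate 11 were called (5.5%), 1 higher and 10 lower, and 6 of these were among the 7. Over all genes 4.63% were called with the score, 214 higher and 495 lower. With the log2 total count as covariate none was called, against 0.0131% of all genes. Total counts ran from 14963221 to 26067610 in high plane and from 8586953 to 22903487 in low plane testes libraries, and the part of depth in the calls was not tested further. DESeq2 called 10 of the 200 (5%), against 8.77% of all genes, and limma voom 142 (71%), against 72.8%.

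The diet differences followed the 2 co-varying groups of genes in all 3 tissues. For the genes fixed in the other 2 tissues, the median difference in the arcuate nucleus was 0.28 for the rising genes (114 of 120 above 0) and -0.20 for the falling genes (0 of 73 above 0). In the pituitary the signs were opposite, at -0.15 (14 of 104 above 0) and 0.18 (65 of 74 above 0). In the testes they were 0.30 (89 of 104 above 0) and -0.38 (11 of 77 above 0). The diet with the larger share of libraries that stood apart was the one with the higher rising genes in each tissue. Without those libraries the medians were 0.02 and -0.03 in the arcuate nucleus, 0.02 and 0.01 in the pituitary, and 0.09 and -0.24 in the testes, where 65 of the 77 falling genes remained below 0. With the library score as covariate they were -0.02 and 0.02 in the arcuate nucleus and -0.05 and -0.12 in the testes. In the pituitary they were -0.04 and 0.19 with the score, and 65 of the 74 falling genes stayed above 0. The members of a group vary together, so these counts are no test. The libraries that stood apart were picked for their values of these same genes. Smaller medians without them thus follow in part from the choice and are no test either.

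**Figure D5:**
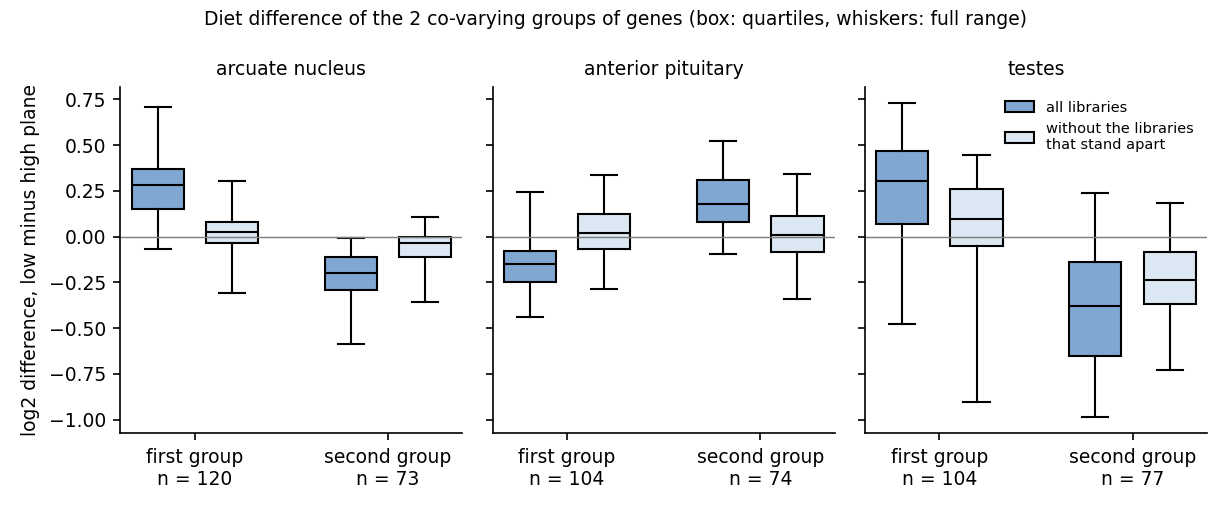
Log2 difference of low minus high plane (vertical axis) of the rising genes (first group) and falling genes (second group) fixed in the other 2 tissues, with all libraries (dark boxes) and without the libraries that stood apart (light boxes); boxes span the quartiles and whiskers the full range. The medians with all libraries are 0.28 and -0.20 in the arcuate nucleus, -0.15 and 0.18 in the pituitary and 0.30 and -0.38 in the testes, and the light boxes lie nearer 0.

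Whether the response to diet differed between tissues was tested as an interaction in 1 fit over all 57 libraries. It was called for 2 of the 200 genes (1%), against 446 of 16476 genes (2.71% called). They were ENSBTAG00000021237, with differences of -0.04 in the arcuate nucleus, 0.07 in the pituitary and -0.80 in the testes (FDR 0.00167), and ENSBTAG00000013653, with -0.08, 0.28 and -0.69 (FDR 0.00645). For the other 5 genes called in the testes a different response in the other tissues was not shown. Without the libraries that stood apart 4 of the 200 were called (2%), against 546 of 16642 genes (3.28% called), and DESeq2 called 4, against 4.75% of all genes.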

How the data were processed

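For each of 57 libraries the authors deposited the count of reads on each of 24616 Ensembl bovine genes, as whole numbers without normalization. Per the labels, CASAVA 1.4, STAR, HTSeq and edgeR were used, with no role or setting stated. The genome build, annotation release, strand setting and treatment of reads that match several genes are not given in the sources used here, so genes that overlap or have near-identical copies are uncertain. The authors removed 3 libraries of low depth, which are not analysed here.

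CPM used the library total. Fits were made in R 4.3.3 with edgeR 4.0.16 (default filter on diet, TMM, quasi-likelihood test, Benjamini-Hochberg adjustment over all genes tested, threshold FDR 0.05). Alternatives used DESeq2 1.42.0, edgeR's exact test, voom of limma 3.58.1 with quality weights, other scalings and filters, covariates, and the removal of each library. The library score is the mean log2 CPM of 200 genes outside those described, taken from the other 2 tissues. The fits were also run on simulated data, in which genes varied independently and with a single dispersion. The genes here vary together, so that run does not show how the fits perform on these data. Shares, CV and components were computed in Python 3.11.15 with numpy 2.4.6 and pandas 2.3.3, with a pseudocount of 1 for log2 values of CPM. Totals of 898979 to 32009433 reads make counting error small for these genes. Nothing in the labels says how libraries were batched.

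Groups came from the diet and tissue labels. The 200 genes, the alternatives and the lists were chosen with earlier results of these data known, and the libraries that stood apart and the 2 groups of genes were picked after the values were seen. The genes named are those of highest rank, at the limits, steadiest and least steady, with the smallest p-value by diet, and with an interaction. The rule allowed more of each, but as no identifier could be matched to a name (0 of those listed), fewer are printed, and 2 that rose and 2 that fell. For the same reason the planned lists by function, of reference genes and of tissue markers were not applied. ENSBTAG00000014490 and the prefix shared by some identifiers were picked after their values were seen.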

Additional observations from a re-analysis of the deposited data

Results flagged for a closer look

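Values within each group were screened with Dixon's test for a library far from the others of its group, over the share of counts, the ratio of rising to falling genes and the CPM of 5 genes (that of rank 1 and 4 called in the testes), in 42 sets of values. Of these, 6 had such a library. Chance gives about 1 set in 20 where sets are independent. These sets share libraries and genes that vary together, and C6 and B42 were already picked as standing apart. The number is therefore no measure of an excess over chance. On the high plane the 200 genes held 22.2% of counts in the arcuate library C9, the next being 19.8% in C60, and 21.6% in the testes library B42, the next being 18.6% in B38. The ratio of rising to falling genes was 21.1 in the low plane arcuate library C6, the next being 8.74 in C33, and 5.96 in the high plane testes library B42, the next being 2.14 in B5. ENSBTAG00000021237 read 328 CPM in C6, the next lowest of the low plane arcuate libraries being 734 CPM in C33. ENSBTAG00000008167 read 407 CPM in B42, the next highest of the high plane testes libraries being 333 CPM in B30.

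The response to diet differed between tissues for ENSBTAG00000021237 (FDR 0.00167) and ENSBTAG00000013653 (FDR 0.00645), by the interaction in edgeR's quasi-likelihood test over all 57 libraries. Both were lower on the low plane in the testes.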

How the results depend on the processing

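Of the 200 genes, 185 were chosen again with TMM-scaled CPM, 181 with medians, 172 in the low plane libraries, 189 with an 8-fold limit, 110 with a 2-fold limit and 194 to 200 without 1 high plane library. The mean share of counts over both diets stayed between 19.0% and 19.5%, between 13.1% and 13.5% and between 17.9% and 18.2% (arcuate nucleus, pituitary, testes) without 1 library. The median CV of the 200 genes on the low plane was 20.4% to 29.8%, 22.3% to 31.2% and 24.4% to 28.1% without 1 library, the lowest arcuate value being without C6. On the high plane it was 13.1% for the arcuate nucleus, 36.1% for the pituitary and 21.4% for the testes, and it was 14.02%, 11.4% and 22.1% in the low plane libraries of the 3 tissues without those that stood apart, an alternative chosen after seeing the data.

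In the arcuate nucleus 0 of the 200 were called under each of the 31 alternatives. In the pituitary 2 were called by DESeq2 (1%, against 1.33% of all genes), 16 by limma voom (8%, against 7.58%), 13 with the library score (6.5%, against 5.29%) and 12 without the libraries that stood apart (6%, against 5.72%), and 0 under the other alternatives, including the removal of each library. In the testes 7 were called as reported, against 6.9% of all genes. The number was 142 by limma voom (71%, against 72.8%), 36 on library totals (18%, against 15.3%), 11 with the library score (5.5%, against 4.63%), 0 with the log2 total count (0.0131%), 1 without the libraries that stood apart (0.5%, against 0.371%), and 1 to 69 without 1 library. The interaction was called for 2 to 4 genes, the 4 (2%) being by DESeq2, against 4.75% of all genes, and without the libraries that stood apart, against 3.28%. The 7 genes called in the testes, together with ENSBTAG00000005408 (arcuate nucleus) and ENSBTAG00000019648 (pituitary), kept their direction under every alternative run for them. The cause of these changes was not tested. No paired analysis was possible because the library numbers are not shared between groups. The lowest count of any of the 200 genes was 25. The testes calls were lost with the log2 total count as covariate, and the low plane testes group held 8 libraries.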

Other observations

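The low plane testes libraries were uneven among themselves. The ratio of rising to falling genes was 2.86 to 6.66 in 5 of the 8, above 9 of the 10 high plane libraries, which ran from 1.43 to 2.14. In the other 3 low plane libraries, B31, B50 and B7, it was 1.36, 1.62 and 1.97, in or below the range of the same 9 high plane libraries. No comparison was made between these sets, since they are defined by the measured values.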
